A study of Mus musculus with 12 samples.

Results

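Oxidation with sodium periodate (NaIO4) was examined at the lowest RNA input of the series, 10 ng of total RNA. The members are the 4 libraries that the labels assign to this input, 2 technical replicates before and 2 after oxidation, out of 12 libraries in all. Testis total RNA of 4-month-old C57BL/6 males was the source, and small RNAs of 17 to 40 nt were sequenced by a construction method that the labels call 10ng-seq. Both groups received 5e-09 ul of spike-in RNA and differ, per the labels, only in the oxidation step. The other 8 libraries, before and after oxidation at 50 and 100 ng, share the strain, sex, age, tissue and method and received more spike-in RNA. They serve to test whether the change at 10 ng differed from theirs. They also enter the filter that chose the tested features, the spread shared by the fits and the grouping of sequences by level. The labels do not say how many mice the RNA came from, so every p-value measures the spread between technical replicates and not between animals.

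Periodate cleaves the bond between neighbouring free 2′ and 3′ hydroxyls at the last nucleotide of an RNA, after which a 3′ adapter can no longer be ligated. Mammalian miRNAs end in such free hydroxyls, whereas piRNAs, which guide PIWI proteins in the germ line, are methylated at the terminal 2′ hydroxyl by HENMT1 and withstand the reaction. In the adult testis most piRNAs are cut from long single-stranded precursor transcripts in meiotic and postmeiotic germ cells, usually begin with U, and in the case of the products of ping-pong amplification tend to carry A at base 10.

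The sequences on which the results turn are shown first. The mature miRNAs were taken from RefSeq (GRCm38.p6), which held 1623 of the 1915 miRNA names of the table. Capitals mark the seed, bases 2 to 8. The most abundant miRNA and 2 pairs with a shared seed stand for the miRNAs that were lost, and miR-468-5p, miR-3471 and miR-7217-3p for the few names that kept reads or kept them in 1 replicate only.
miR-741-3p: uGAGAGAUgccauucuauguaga
miR-100-5p: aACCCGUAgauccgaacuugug
miR-99a-5p: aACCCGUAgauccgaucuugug
let-7a-5p: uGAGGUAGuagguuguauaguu
let-7f-5p: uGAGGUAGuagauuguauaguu
miR-468-5p: gACUGAUGuacugauaagaaacucagu
miR-3471: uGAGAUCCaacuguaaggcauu
miR-7217-3p: uGAGAACCcacaagcaagaaga

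The piRNA-table sequences below match a GENCODE M21 transcript (GRCm38) at a single place, as 2793 of the 22726 tested sequences did, and they stand for the highest sequence before oxidation (A), sequences called higher (X and BD) or lower (W) or left without reads in both replicates (Z, BB and BC), and sequences found after oxidation in 1 replicate only (BH and BI). Higher and lower refer to RPM. Capitals mark base 1 and base 10. No genome sequence was searched, so a second genomic copy cannot be told apart from the place given. Each is named by a letter, and sequences without a transcript match are described by length alone.
Sequence A: TatgtgaatTtcaactgttggctccacagg
Sequence X: TttcacttcAgttgaaatgatcactctacc
Sequence Z: TgacagaatGacagagggctatctatgctg
Sequence BD: TaggacagtAtgttgaactcagcagaatcc
Sequence W: TagaagacgAgtttggactgagcgaaatt
Sequence BB: TacctttaaTcccagatgaccttgaactc
Sequence BC: TccgagaatGagagcagcacagcacgcgt
Sequence BH: TatctgaagAgttgagtatatgtggggcc
Sequence BI: TgttctgatCtgatgtgtttctagcct

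Sequences A (chr7:73824992-73825021, plus strand), X (chr7:73817767-73817796) and Z (chr7:73817804-73817833) lie in exons of the long noncoding RNA Gm21269. Sequences W (chr6:85112879-85112907, minus strand) and BD (chr6:85114928-85114957) lie in Gm5878. Sequence BB (chr17:27338770-27338798, plus strand) lies in Gm10505 and BC (chr17:27362313-27362341) in Gm49794, both annotated as long noncoding RNAs. Sequence BH (chr4:135628021-135628049, plus strand) lies in 1700029M20Rik, and BI (chr17:49112697-49112723, minus strand) in 1700008K24Rik. Each of the 9 has the sense of its transcript.

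The deposited RPM values corresponded to 2799596 and 2754411 mapped reads before and 2162327 and 1924201 after oxidation. The 12 libraries together ranged from 1924201 to 3347735. A single read was worth 0.357 and 0.363 RPM before and 0.462 and 0.520 RPM after oxidation at 10 ng. Intervals and floors below cover counting error only. Of the marker miRNAs, those of germ cells summed to 40032 and 41251 RPM before oxidation, with 6 of 6 detected in both replicates. The smooth muscle pair summed to 8940 and 9180 RPM, of which miR-145a-5p made up only 6.79 and 3.63 RPM. The Sertoli pair (miR-202) summed to 105 and 109.6 RPM. The liver pair was at 189 RPM in each library, almost all of it miR-192-5p, and the striated muscle miRNAs at 57.9 and 64.3 RPM. The 4 blood miRNAs summed to 0.179 and 1.45 RPM.

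Oxidation at 10 ng removed nearly all miRNA reads, and piRNA reads made up most of the rest. Summed miRNA abundance was 116696 and 119672 RPM in the replicates before oxidation and 293 and 441 RPM after it, a mean 322-fold lower. These values rest on 326701 and 329627 miRNA reads before and only 634 and 848 after. Summed piRNA abundance was 815437 and 812799 RPM before and 918618 and 880940 RPM after. The replicates of the 2 groups did not overlap in either sum. With 2 libraries against 2 an exact 2-sided permutation test cannot give less than p = 0.333, the value it gave for both sums.

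With miRNA reads gone, every other read takes a larger share of the RPM total. Once miRNA reads are set aside, piRNA reads were 92.3% in both replicates before oxidation, and 91.9% and 88.1% after it. The remaining reads, neither miRNA nor piRNA, went from 6.79% and 6.75% of the total to 8.11% and 11.9%. Replicate 2 after oxidation thus held the lower share of piRNA reads and also the fewest distinct sequences, as given below.

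The 6 spike-ins fell into 3 whose reads nearly vanished and 3 whose reads increased. The labels do not explain their names, and those ending in Me are called methylated here from that ending and from their response to oxidation, so that response is no independent check of the mark. The unmethylated sp1 had 743 and 825 reads before oxidation and 3 and 3 after it. For sp2 the reads were 807 and 630 before and 0 and 2 after. For sp3 they were 2573 and 2954 before and 4 and 2 after. The 3 together kept 0.223% of their reads, scaled to mapped reads (exact Poisson 95% interval 0.122% to 0.374%, from 14 reads). The single values were 0.520% for sp1 (0.191% to 1.13%), 0.189% for sp2 (0.0229% to 0.684%) and 0.147% for sp3 (0.0541% to 0.321%), with overlapping intervals.

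The methylated spike-ins were higher after oxidation in both replicates. sp2Me, the most abundant, had 29717 and 27562 reads before and 281788 and 290145 after oxidation. sp3Me went from 648 and 733 to 7569 and 8366 reads. sp1Me went from 39 and 30 to 2226 and 2428 reads. Scaled to mapped reads the ratios of the means, after over before, were 13.6-fold for sp2Me, 15.8-fold for sp3Me and 92.3-fold for sp1Me. The 3 oligonucleotides with the same mark thus had unequal ratios, while the replicates lay close together. At 50 ng the ratio was 6.75-fold for sp2Me, 2.95-fold for sp3Me and 14.7-fold for sp1Me. The values at 100 ng were 5.66-fold for sp2Me, 2.63-fold for sp3Me and 5.62-fold for sp1Me, and the difference between inputs was not tested. Per methylated spike-in read, piRNA reads numbered 75.1 and 79.0 before and 6.81 and 5.63 after oxidation. Relative to these spike-ins the piRNA total was at 0.0807 of its value before, where in RPM it was at 1.11 times that value.

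The miRNAs fell as a body. Of 141 miRNAs tested out of 1915 (limma-trend on log2(RPM + 1), a mean of at least 5 RPM over the 12 libraries, Benjamini-Hochberg adjusted p below 0.05), 136 were called lower, 96.5% of those tested, and 2 were called higher, 1.42%. The 10 ng libraries did not overlap for the same numbers of miRNAs in each direction. The median log2 fold change was -5.71, a value that the pseudocount limits for miRNAs with no reads left. Centring each library on its median miRNA, which lies 6.00 log2 units lower after oxidation, takes the shared fall away by construction and then called 63 miRNAs higher and 58 lower. The scalings of edgeR with TMM and of DESeq2 also take a shared fall away by construction, and these fits called 9 and 14. Why they called fewer than centring was not tested. Without TMM edgeR called 138, with 136 of them lower.

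Highest stood miR-741-3p, a member of the testis cluster on the X chromosome (chrX:66796809-66796831, minus strand), at 20428 and 21811 RPM before oxidation and 29.1 and 21.8 RPM after it. Both replicates after oxidation lay far below both before it. Next came miR-10b-5p from the Hoxd cluster, at 9822 and 10197 RPM and then 12.5 and 16.6 RPM. The vessel and muscle miRNA miR-143-3p had 8933 and 9176 RPM before and 6.94 and 8.83 RPM after oxidation. For these 3 the log2 fold changes were -9.65 ± 0.27, -9.34 ± 0.22 and -10.00 ± 0.26 (SE), each called lower by limma.

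The next members of the X-linked cluster behaved alike. miR-470-5p stood at 7788 and 7830 RPM before and 3.24 and 6.76 RPM after, and miR-871-3p at 6981 and 6761 RPM before and 6.94 and 6.24 RPM after oxidation. miR-743b-3p went from 3657 and 3761 RPM to 2.31 and 3.12 RPM. miR-191-5p, miR-100-5p, miR-99a-5p and miR-26a-5p complete the 10 highest, with means of 6546, 5234, 3822 and 3531 RPM before and 6.50, 5.60, 4.68 and 1.70 RPM after. The largest falls called were -10.41 ± 0.41 for miR-470-5p, -10.35 ± 0.60 for miR-26a-5p and -10.10 ± 0.44 for miR-125a-5p.

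The lists of miRNA families and cell type miRNAs, drawn up with earlier results of these data known, fell together. In the X-linked cluster 24 of 24 tested members were called lower (median log2 fold change -7.52), in the let-7 family 9 of 9 (-9.02), in the miR-30 family 7 of 7 (-8.15) and in the family that joins miR-99 and miR-125 with miR-10 and miR-100 7 of 7 (-9.63). All 4 tested members of the miR-34 and miR-449 family, known from meiotic germ cells, were called lower (-5.56), as were 5 of 5 of the miR-17-92 and paralogous clusters (-4.70), 3 of 3 of the miR-15/16 family (-6.08), 2 of 2 of the miR-183 cluster (-6.47), 9 of 9 tested for Sertoli and other gonadal somatic cells (-5.77), 4 of 4 of vessel and muscle (-6.37), 3 of 3 of the Dlk1-Dio3 cluster (-5.47) and the only tested liver miRNA, miR-192-5p (-7.24). These counts stand beside a background of 96.5% called lower, and they were made on RPM. After centring on the median miRNA the medians of the miR-34 and miR-449, miR-17-92, Sertoli and Dlk1-Dio3 lists turned positive, at 0.44, 1.30, 0.23 and 0.52. No blood cell miRNA reached the level for testing.

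The abundant miRNAs kept small shares of their level, resting on few reads. The 57 miRNAs with at least 100 RPM before oxidation kept 0.103% of their summed RPM, from 480 reads, and their median share was 0.0994%. Over all 57 the shares ran from 0, with 8 miRNAs left without reads, to 0.492%. For the 20 highest they ran from 0.0485% to 0.144%. Many of the 57 had few reads after oxidation, so that their intervals are wide and cannot show whether the loss was even. The exact Poisson 95% interval held the common share of 0.103% for 52 of the 57. It lay above the common share for miR-10b-5p (0.144%), miR-34c-5p (0.239%) and miR-27b-3p (0.492%), and below it for miR-470-5p (0.0627%) and miR-26a-5p (0.0485%), with intervals not adjusted for their number. Levels before and after oxidation had a Spearman correlation of 0.868 across these 57 miRNAs, which share their libraries and are not independent. The interval of the unmethylated sp2 and that of sp3 held this common share, while that of sp1, from 6 reads, lay above it. The interval of the 3 together, 0.122% to 0.374% from 14 reads, also lay above it.

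**Figure D1:**
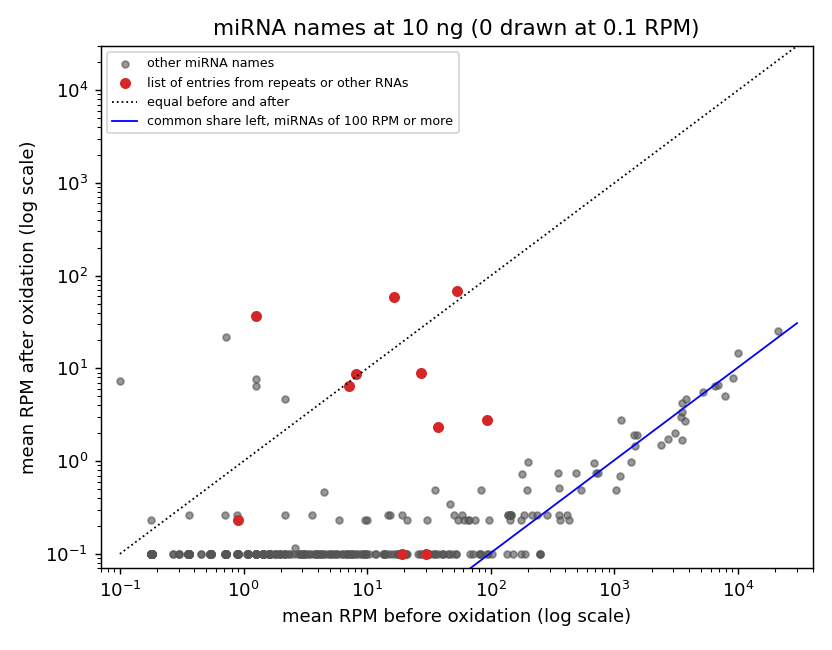
Mean RPM of each miRNA name after oxidation against its mean RPM before it at 10 ng, both on log scales, with 0 drawn at 0.1 RPM. The most abundant miRNAs lie near the solid line of 0.103% left. Several entries listed as coming from repeats or other RNAs lie near or above the dotted line of equal levels.

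A small set of entries kept most of the reads. Their list was drawn up with earlier results of these data known, so its share after oxidation is a description and no test. The list of entries from repeats or other RNAs held 276 and 311 RPM before oxidation and 150 and 237 RPM after it, so that it made up 0.237% and 0.260% of the miRNA RPM before and 51.3% and 53.8% after oxidation. Of its 10 tested members 5 were called lower and 2 higher, with a median log2 fold change of -1.75. miR-468-5p, annotated at 27 nt (chr6:81896629-81896655, minus strand), rose from 1.07 and 1.45 RPM to 35.6 and 38.5 RPM, a log2 fold change of 4.08 ± 0.68 (limma adjusted p = 0.000285). Scaled to the methylated spike-ins its log2 fold change was 0.94 and was not called (limma adjusted p = 0.213). It reached the level for testing only through the libraries after oxidation at 10 ng. Its call on RPM is thus no independent support for a rise. miR-7214-5p rose from 14.3 and 18.9 RPM to 30.1 and 87.8 RPM (log2 fold change 1.59 ± 0.46, limma adjusted p = 0.00812), but it was not called without replicate 1 before oxidation (log2 fold change 1.40) or in a fit on only the 4 libraries, and its change turned to -2.04 when values were scaled to the methylated spike-ins. miR-3470a of the same list was at 51.1 and 54.8 RPM before and 43.0 and 93.0 RPM after oxidation, with overlapping groups (limma adjusted p = 0.739).

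The 2 replicates after oxidation disagreed on several of these entries. miR-3471 (chr4:10845585-10845606, minus strand) was at 22.9 and 31.6 RPM before oxidation and at 18.04 RPM, from 39 reads, and 0 after it. Its fall (limma adjusted p = 0.0343) was lost without replicate 2 after oxidation, at a log2 fold change of -0.55, and also without replicate 1 or 2 before oxidation, at -2.90 and -2.45. It was lost as well, at an unmoved -2.68, without any one of the libraries before oxidation at 50 or 100 ng or of those after it at 100 ng, which enter the shared spread. miR-7217-3p had 12 reads in replicate 1 and none in replicate 2. Below the tested level, miR-7230-5p had 33 and 0 reads, miR-5099 27 and 1, miR-3470b 1 and 33, miR-7223-5p 0 and 28, and miR-3057-5p 0 and 25 reads in replicates 1 and 2. Abundant miRNAs showed no such gaps, with 63 and 42 reads for miR-741-3p, 27 and 32 for miR-10b-5p and 15 and 17 for miR-143-3p. Where an abundant miRNA was found in a library after oxidation, the median was 2 reads in that library.

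Of the piRNA-table sequences far fewer were seen after oxidation, and each was read many more times. Distinct sequences numbered 223127 and 212039 before and 59302 and 42603 after oxidation, so that 0.234 of the number remained. The fraction was 0.250 when every library was thinned to 1600000 piRNA reads and 0.339 when a sequence had to have 3 reads. The median sequence had 3 reads in both replicates before and 21 and 28 reads after oxidation. Sequences with 10 or more reads were 15.8% and 16.3% of those detected before and 87.7% and 88.8% after oxidation.

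The distribution of reads per sequence changed its form. Before oxidation the number of sequences fell steadily from 3 reads upward. After oxidation it had a first group at 1 read, with 3614 and 2993 sequences, a gap at a few reads and a second group that peaked at 20 reads in replicate 1 and 27 reads in replicate 2. Sequences with 10 to 40 reads were 72.0% and 69.1% of all distinct sequences after oxidation, against 12.3% and 12.7% before. They carried 46.8% of the piRNA reads in each replicate after oxidation. In the 10 libraries other than these 2, the most common read number above 5 was 6, the lowest possible.

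**Figure D2:**
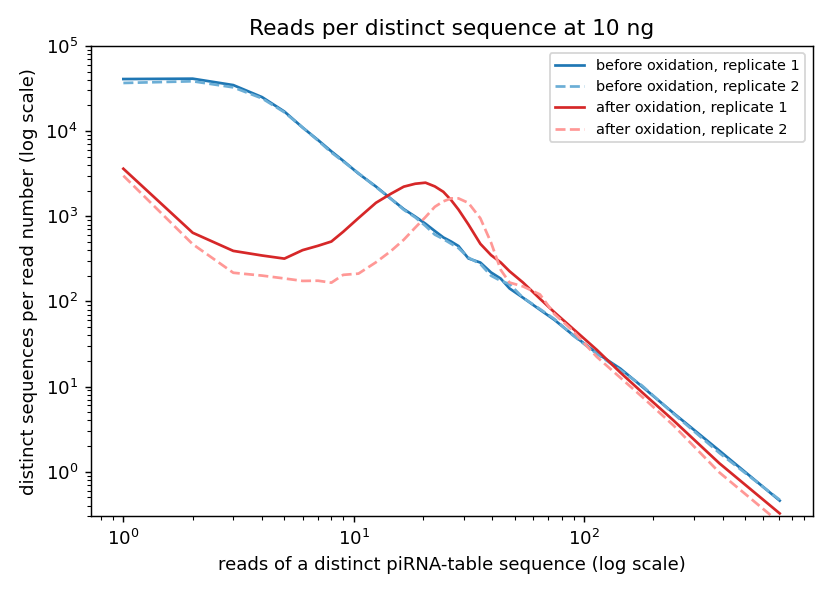
Number of distinct piRNA-table sequences per read number against the reads of a sequence, both on log scales, for the 4 libraries at 10 ng. The 2 libraries before oxidation fall steadily, whereas the 2 after it show a dip at a few reads and a second peak, at 20 and 27 reads.

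The sequences of this second group were mostly not the same in both replicates. Of the sequences with 10 to 40 reads in replicate 1, 18.4% were detected in replicate 2, and 27.2% in the opposite direction. Nevertheless 81.1% and 80.4% of them occurred in at least 1 of the other libraries. Among sequences with over 100 reads, 94.8% and 97.4% were shared with the other replicate. In all, the replicates after oxidation shared 15326 sequences, 25.8% of those in replicate 1 and 36.0% of those in replicate 2, which held 52.7% and 58.1% of the reads. The replicates before oxidation shared 96672 sequences, 43.3% and 45.6% of each, with 82.8% and 83.7% of the reads.

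Counts of a sequence in the 2 replicates differed far more than sampling of reads gives. Over sequences with a mean of at least 20 reads, the median chi-square between replicates was 36.6 times that of sampling noise after oxidation and 3.89 times before it at 10 ng. At 50 ng these values were 9.79 after and 2.24 before, and at 100 ng 4.92 and 2.20. Of 18633 such sequences after oxidation, 5706 (30.6%) had no read in 1 of the 2 replicates, while 0 of 15648 did before oxidation. Sequence BH (39 and 82 reads before oxidation) had 0 and 139 reads after it, and sequence BI (121 and 98 reads before) had 155 and 0. A 29-nt sequence without a transcript match had 531 and 530 reads before oxidation and 235 and 0 after it.

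Loss depended on abundance but reached well into the abundant sequences. Sequences were grouped by their reads in the 4 libraries before oxidation at 50 and 100 ng, which this comparison does not use. Of those with 31 to 100 such reads, 93.7% and 92.7% were detected before oxidation at 10 ng and 35.9% and 26.6% after it. With more than 100 and up to 300 reads the shares were 99.8% and 99.7% before and 58.3% and 47.6% after. Even among the 983 sequences with over 1000 reads, 96.5% and 90.3% were detected after oxidation and 100% before. The same sequences of up to 300 reads were detected after oxidation in 96.3% and 94.4% at 50 ng and in 97.2% and 96.4% at 100 ng.

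**Figure D3:**
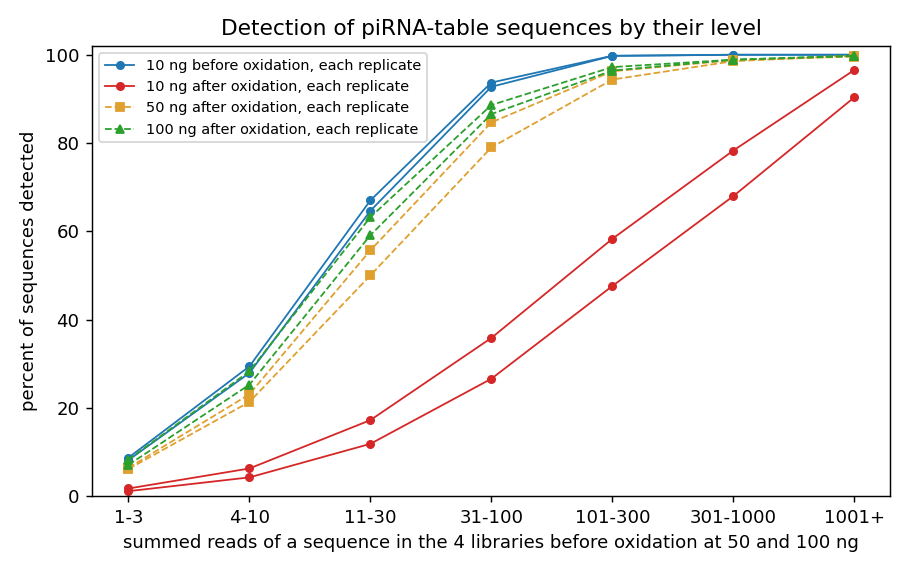
Percent of piRNA-table sequences detected with at least 1 read, by their summed reads in the 4 libraries before oxidation at 50 and 100 ng; each line is 1 library. At every level the 2 libraries after oxidation at 10 ng lie below all other libraries drawn, at 58.3% and 47.6% for sequences of more than 100 and up to 300 reads.

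Single piRNA sequences moved in both directions. Of 22726 tested, out of 1018402 in the table, 7154 were called lower (31.5%) and 4864 higher (21.4%) by limma with a spread shared over the 6 groups, 52.9% in either direction. The replicates did not overlap for 8568 lower (37.7%) and 6369 higher (28%). That spread does not describe these libraries, since the replicate SD of a sequence on the log2 scale was 1.75 after oxidation at 10 ng, 0.555 before it and 0.372 to 0.732 in the other groups. With the spread estimated per group, an alternative chosen after seeing the data, 3324 were lower and 1265 higher. A fit on only the 4 libraries at 10 ng gave 5206 and 2460. The direction depended on the scaling. edgeR with TMM called 8085 lower and 2421 higher, DESeq2 8995 and 2972, and scaling to the methylated spike-ins 17943 and 442. Choosing the tested sequences from the libraries before oxidation at 50 and 100 ng gave 8990 lower and 2476 higher. Of the 7154 called lower 4288 had no read in either replicate after oxidation.

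Among the highest sequences, sequence A was the first before oxidation, at 3418 and 3584 RPM, and it was at 3388 and 3189 RPM after it, not called on RPM (limma adjusted p = 0.447). It was called lower by edgeR with TMM (log2 fold change -1.09), by DESeq2 (-1.16) and by limma after scaling to the methylated spike-ins (-3.87). A 32-nt sequence fell from 2279 and 2335 RPM to 446 and 535 RPM, a log2 fold change of -2.24 ± 0.19. A 29-nt sequence without a transcript match became the highest after oxidation. It went from 475 and 491 RPM to 10168 and 9742 RPM, a 20.6-fold rise of the mean that remained a rise per methylated spike-in read. A 22-nt sequence rose from 243 and 216 RPM to 1762 and 1482 RPM, which turned to a fall of 0.96 log2 units per methylated spike-in read.

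Sequences of 1 precursor went separate ways. In Gm21269, sequence X rose from 90.0 and 99.1 RPM to 1635 and 1235 RPM, a 15.2-fold change, though not one called per methylated spike-in read (log2 fold change 0.13). Sequence Z, which lies a few bases downstream of X on the same strand, had 125 and 137 RPM before oxidation and no read in either replicate after it, at least 179-fold lower if 3 reads over both replicates are taken as the floor. In Gm5878, sequence BD went from 9 and 2 reads to 537 and 563 reads, while sequence W fell from 703 and 688 RPM to 189 and 198 RPM. Sequences BB (103 and 85.7 RPM before) and BC (73.6 and 106 RPM before) had no read after oxidation, at least 128-fold and 122-fold lower.

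Sequences matching a single annotated gene in sense were summed for each gene, a grouping chosen after seeing the data. Gm21269 held 12479 and 12512 RPM before and 17287 and 16125 RPM after oxidation, from 2527 and 2378 distinct sequences before and 768 and 564 after. Gm49794 held 8180 and 7929 RPM before and 7807 and 7789 RPM after, and 1700001L05Rik 6387 and 6232 RPM before and 6092 and 6444 RPM after, both with limma adjusted p above the threshold at 0.297 and 0.889. Gm10505 fell from 3933 and 3986 RPM to 2552 and 2637 RPM. Of 105 genes with a mean sum of at least 50 RPM, 31 were called higher (29.5%) and 23 lower (21.9%), with a median log2 fold change of 0.05. The replicate SD of a gene sum on the log2 scale was 0.649 after oxidation at 10 ng and 0.155 before it. With the spread estimated per group 26 were higher and 18 lower. These directions are relative to the RPM total.

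The loss within a precursor was spread over its sequences. Of the 313 Gm21269 sequences with at least 10 reads in both replicates before oxidation, 94 were found in both replicates after it, 96 in 1 and 123 in neither. For the 289 of Gm49794 these numbers were 88, 95 and 106, and for the 137 of 1700001L05Rik they were 59, 40 and 38. Over all 23270 sequences with at least 10 reads in both replicates before oxidation, 31.1% were in both after it, 30.2% in 1 and 38.6% in neither.

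Sequences that match transcripts on both strands went from 1.98% and 2.02% of the piRNA RPM to 0.952% and 1.09%. Those that match short noncoding transcripts annotated as misc_RNA went from 0.226% and 0.207% to 0.0170% and 0.0150%, 13.5-fold lower. Sequences in sense only went from 11.1% in both replicates to 10.97% and 10.9%, and those in antisense only were at 1.97% and 1.96% before and 2.40% and 2.49% after. No piRNA-table sequence matched an annotated rRNA, snRNA, snoRNA or mitochondrial tRNA transcript. The replicates did not overlap between groups in any of these shares, for which the exact permutation test gives p = 0.333, its lowest value.

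By length, the table's reads lay less at its long end and more at its short end after oxidation. Counted over distinct sequences, the share of 20 to 22 nt went the other way, by -0.715 percentage points. Sequences of 33 to 40 nt were 2.55% and 2.51% of the piRNA RPM before and 0.881% and 0.759% after oxidation. The mean was 2.09-fold lower at 33 nt, 11.2-fold at 37 nt and 9.55-fold at 40 nt. Sequences of 17 nt went from 0.291% and 0.283% to 0.775% and 1.03%, and those of 18 nt from 0.240% and 0.243% to 0.642% and 0.866%. Sequences of 19 nt were 0.987% and 1.03% before and 0.730% and 0.775% after, a difference that turned to 0.214 percentage points higher among sequences with a mean of at least 5 RPM.

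In the main range of piRNAs the shares of 29 and 30 nt were the largest. That of 29 nt went from 18.1% and 18.2% to 19.6% and 19.3%. That of 30 nt went from 24.8% in both replicates to 26.3% and 25.8%. The share of 31 nt went from 15.2% and 15.1% to 14.2% and 13.7%, and that of 32 nt from 4.85% and 4.87% to 3.55% and 3.59%. At 31 nt the change in the share of RPM at 50 and 100 ng was of the opposite sign, at 0.535 and 0.859 percentage points. Counted over distinct sequences the share of 31 nt was higher after oxidation at all 3 inputs, by 1.55, 1.87 and 1.68 percentage points at 10, 50 and 100 ng. The 5100 families of sequences that share their first 24 bases, with at least 20 reads in each library at 10 ng, had a mean length of 29.26 nt before and 29.17 nt after oxidation, and 54.3% of them were shorter after it.

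**Figure D4:**
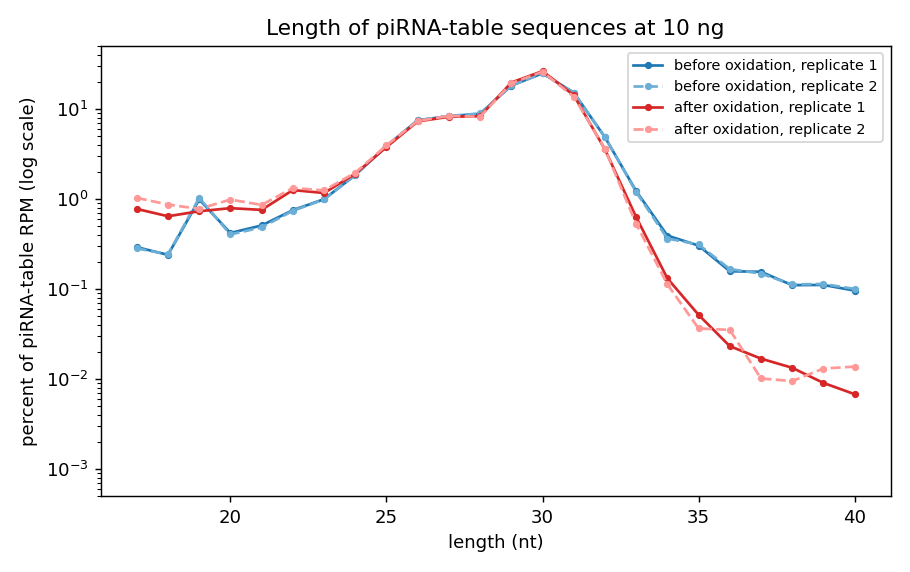
Percent of piRNA-table RPM at each length from 17 to 40 nt, on a log scale, in the 4 libraries at 10 ng. After oxidation the curve lies lower from 31 nt onward, to 0.881% and 0.759% for 33 to 40 nt in all, and lies higher from 17 to 23 nt except at 19 nt.

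Sequences were then summed into classes of length, first base U or not, and base 10 A or not. Of 93 classes tested, 80 (86%) were called by limma, 37 higher (39.8%) and 43 lower (46.2%). The replicates did not overlap for 38 higher (40.9%) and 44 lower (47.3%). The shared spread understates that of these libraries, since the replicate SD of a class on the log2 scale was 0.702 after oxidation at 10 ng and 0.0554 to 0.209 in the other groups. With the spread estimated per group 35 were higher and 39 lower. All 8 classes of 17 and 18 nt and all 16 classes of 20 to 23 nt were called higher, and all 29 classes of 33 to 40 nt lower. Scaled to the methylated spike-ins, 92 classes were lower and none higher, so these directions too are relative to the RPM total. The largest rise was that of 17 nt without U at base 1 or A at base 10, from 251 and 231 RPM to 1877 and 3290 RPM (log2 fold change 3.36 ± 0.23). The same class of 18 nt went from 226 and 220 RPM to 1273 and 1853 RPM (2.78 ± 0.19).

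The 4 largest falls were long sequences without U at base 1 and with A at base 10. At 37 nt this class had 339 and 331 RPM before oxidation and no read after it, at least 457-fold lower. At 39 nt it had 118 and 124 RPM before and no read after, at least 165-fold lower. At 36 nt it fell from 224 and 256 RPM to 0 and 1 read, and at 35 nt from 248 and 276 RPM to 9.71 and 0.520 RPM.

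The bases changed as well. U at base 1 was at 88.5% and 88.4% of the piRNA RPM before oxidation and 90.4% and 89.1% after it. Counted over distinct sequences it went from 79.3% and 79.2% to 87.6% and 86.9%. A at base 10 went from 33.6% and 33.9% to 31.3% and 30.99%, and U at base 10 from 22.5% and 22.1% to 29.2% and 29.3%. At the 3′ end C went from 36.0% and 36.2% to 40.8% and 40.9%, while U went from 35.8% and 35.4% to 32.98% and 32.7%. Sequences with A at base 10 but no U at base 1 went from 5.03% and 5.08% to 3.66% and 4.04%.

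The shift at base 10 was not particular to that position. In sequences of 26 to 32 nt, aligned at the 5′ end, the share of U was called higher by limma at 25 of 25 positions from base 2 to base 26 (100%), an analysis chosen after seeing the data. At base 3 it went from 19.8% and 19.5% to 28.4% and 28.3%, at base 8 from 27.0% and 26.6% to 34.7% and 34.6%, and at base 10 from 22.6% and 22.2% to 29.4% and 29.6%. A was called lower at 20 of the 25 positions (80%) and higher at 3 (12%), G lower at 19 (76%) and C lower at 15 (60%). Over all 4 bases and 26 positions 88 of 104 shares were called (84.6%). The largest single losses were G at base 2, from 34.04% and 34.3% to 26.6% and 26.4%, and C at base 4, from 23.7% and 23.8% to 17.5% in both replicates. The positions share their reads and are not independent of each other.

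**Figure D5:**
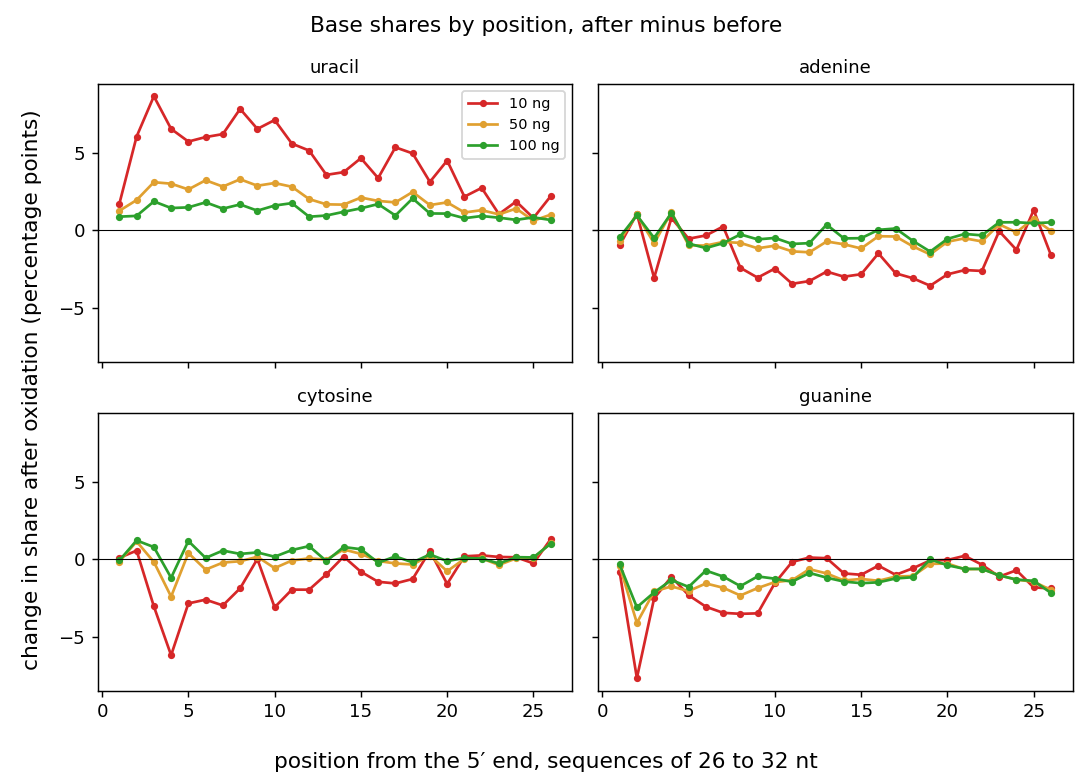
Change in the share of each base after oxidation, in percentage points, by position from the 5′ end in sequences of 26 to 32 nt, at 10, 50 and 100 ng (means of 2 replicates). The 10 ng curve of uracil lies above 0 at every position and reaches 8.67 points at base 3, and that of adenine lies below 0 from base 8 to base 22.

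The change at 10 ng was tested against the mean change at 50 and 100 ng in the same fits. The rise of U differed at 23 of the 25 positions from base 2 to 26 (92%), each time larger at 10 ng, as at base 3 with 8.67 points at 10 ng, 3.11 at 50 ng and 1.86 at 100 ng. A had a lower change at 10 ng at 19 positions (76%), C at 17 (68%) and G at 6 (24%), and G a higher one at 8 (32%). Of the 93 classes 63 (67.7%) differed, 30 with a higher change at 10 ng (32.3%) and 33 with a lower one (35.5%), and 41 did without replicate 1 before oxidation at 10 ng. Scaled to the methylated spike-ins the split was 4 higher and 76 lower, and by edgeR with TMM 35 and 25. The 4 classes of 19 nt all differed, each with a higher change at 10 ng. The class of 19 nt without U at base 1 and with A at base 10 fell from 1445 and 1525 RPM to 507 and 641 RPM, a log2 fold change of -1.38 at 10 ng beside -3.19 at 50 ng and -3.42 at 100 ng. At the long end 16 of 29 classes fell more at 10 ng and 1 fell less.

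Of the piRNA sequences 7217 (31.8%) differed from their change at 50 and 100 ng, 5286 of them with a lower change at 10 ng (23.3%) and 1931 with a higher one (8.5%). With the spread estimated per group these were 2170 and 159. edgeR with TMM gave 6409 lower and 647 higher, DESeq2 6988 and 1217, and scaling to the methylated spike-ins 7785 and 565. Without replicate 1 or replicate 2 after oxidation at 10 ng the count was 13864 or 11778, since the spread between these replicates then leaves the fit. A 31-nt sequence of 104 and 138 RPM before oxidation had no read after it at 10 ng, while its log2 change was 0.08 at both 50 and 100 ng (limma adjusted p of the difference = 6.3e-05).

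Of the miRNAs 60 (42.6%) were called different from their change at 50 and 100 ng, 41 with a smaller fitted fall at 10 ng (29.1%) and 19 with a larger one (13.5%), and 39 without replicate 1 before oxidation at 50 ng. After centring on library medians these were 16 and 25, and after scaling to the methylated spike-ins 20 and 36. Count models did not make these calls: edgeR called 0 with or without TMM and DESeq2 called 1, although 71 miRNAs had an unadjusted limma p below 0.05. After oxidation at 10 ng 37 of the 60 had no read and 51 had at most 3 reads over both replicates. All 41 with the smaller fitted fall were lower before oxidation at 10 ng than at 50 and 100 ng, and all 19 with the larger one were higher, with median ratios of 0.545 and 2.52. For a miRNA without reads after oxidation the fitted change is set by its level before oxidation and the pseudocount. The calls of these 37 therefore do not show a different response to oxidation at 10 ng. miR-202-3p of Sertoli cells, for example, was at 35.0 and 47.6 RPM before and had no read after oxidation, at least 56.2-fold lower. It had no read after oxidation at 50 or 100 ng either, where it was at 12.8 and 13.4 RPM and at 8.77 and 8.84 RPM before. miR-148b-3p was at 26.4 and 34.1 RPM before and had 1 read after it. Others called kept more reads, such as miR-10b-5p with 59 after oxidation at 10 ng (fitted difference 1.09, limma adjusted p = 0.0118). Whether the response of such miRNAs differed was not tested apart from these fits.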

How the data were processed

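The authors deposited miRNA and piRNA-sequence tables in RPM, read numbers scaled to mapped reads, and a table of raw spike-in read counts for the 12 libraries. The submitters' processing notes name Bowtie and the builds mm10 and hg38, with no version. RPM values of the piRNA table were whole multiples of 1 value per library, from which reads and totals were recovered. Reads of miRNAs are shared between names in places and were rounded for count models. After oxidation few reads of miRNAs and unmethylated spike-ins were left, so their values move in coarse steps of 1 read. Intervals cover counting error only. For piRNA sequences after oxidation at 10 ng, thinning to 1600000 reads left 58566 of 59302 and 42432 of 42603 distinct sequences.

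miRNAs and sequences averaging at least 5 RPM, and classes averaging 50 RPM, were tested with limma-trend 3.58.1 (R 4.3.3) on log2(RPM + 1) over 6 group means, with Benjamini-Hochberg adjustment over all features tested. A second contrast set the 10 ng change against the mean change at 50 and 100 ng. Single sums were given an exact permutation test. edgeR 4.0.16 and DESeq2 1.42.0 on recovered reads, other pseudocounts and filters, centring, spike-in scaling, a replicate block and leaving out each library were alternatives. The fits were tested on simulated data with the same spread in every library. Such data do not hold the wider spread between replicates after oxidation at 10 ng. Descriptions used Python 3.11.15 with pandas 2.3.3 and scipy 1.17.1.

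miRNAs named are the 10 highest before oxidation, the 8 highest after it, the 8 largest falls and 8 highest changes, the 3 smallest p of the second contrast, and the 2 highest of each list. piRNA sequences and classes follow a like rule of abundance, change, replicate gap and p. The rule was repeated among sequences placed on 1 transcript, a step added after seeing the data. The gene sums and the miRNAs named for their reads after oxidation were also chosen after their values were seen. The members and lists were chosen with earlier results of these data known.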

Additional observations from a re-analysis of the deposited data

Results flagged for a closer look

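The change at 10 ng differed from the mean change at 50 and 100 ng, by limma's test of the difference itself with Benjamini-Hochberg adjustment, for 60 miRNAs, 7217 piRNA sequences and 63 classes. Among miRNAs, the fitted difference of log2 changes was -1.83 for miR-202-3p, 2.53 for miR-148b-3p and -2.93 for miR-151-3p. All 3 had at most 1 read after oxidation at 10 ng, where the fitted change is set by the level before oxidation and the pseudocount, so the values do not show a different response. The calls of miR-148b-3p and miR-151-3p were lost when 0.1 was added in place of 1 RPM (limma adjusted p = 0.0747 and 0.0722), and edgeR and DESeq2 called none of the 3.

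Among piRNA sequences without a transcript match, a 29-nt sequence that fell from 289 and 286 RPM to 24.5 and 25.98 RPM differed by -4.41. A 31-nt sequence that fell from 205 and 257 RPM to 10.6 and 14.6 RPM differed by -4.70. The 31-nt sequence with no read left differed by -6.99. The first 2 had log2 changes of 0.71 and 0.43 at 50 ng and of 1.19 and 0.78 at 100 ng.

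Among classes, sequences without U at base 1 or A at base 10 differed by 2.69 at 17 nt and 2.19 at 18 nt. Those of 19 nt without U at base 1 and with A at base 10 differed by 1.92. Those of 32 nt with U at base 1 and without A at base 10, which fell from 23379 and 23170 RPM to 19694 and 18617 RPM, differed by -0.49.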

How the results depend on the processing

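Of the miRNAs, 138 were called at 10 ng (131 to 144 without 1 library), 214 with no filter, 66 at a mean of 50 RPM, 9 by edgeR with TMM and 14 by DESeq2, whose scalings, like centring, remove a shared fall by construction. The 60 that differed from 50 and 100 ng (39 to 61 without 1 library) became 29 and 99 with pseudocounts of 0.1 and 10, 16 at 50 RPM, 0 by edgeR with or without TMM (7 and 9 at an unadjusted p below 0.05) and 1 by DESeq2. For piRNA sequences 12018 calls (9317 to 17046) became 6094 with no filter, 1386 at 50 RPM, 18385 per methylated spike-in read, 4589 with a spread per group and 7666 on the 4 libraries. The 7217 differences (4943 to 13864) became 1059, 1149 and 2329 with no filter, at 50 RPM and with a spread per group. Class calls ran from 73 to 85 without 1 library, and the 63 class differences from 41 to 73, with 36 after centring. Replicate numbers did not pair the samples (correlations of deviations from -0.47 to 0.31), and the replicate block gave 138, 11825 and 79 calls and 55, 6860 and 63 differences for miRNAs, piRNA sequences and classes. The miRNA fold of 322 (268 to 403 without 1 library) was 4484 per methylated spike-in read. The piRNA fold of 1.11 was 0.0807 per methylated spike-in read and 0.975 with miRNA reads set aside. The percent left was 0.00744 for abundant miRNAs and 0.0162 for unmethylated spike-ins per methylated spike-in read. Counting each distinct sequence once, the changes in percentage points were 0.269 at 17 nt, -1.29 at 19 nt, -3.64 at 33 to 40 nt, -0.715 at 20 to 22 nt, where reads gave 1.33, -0.572 at 23 nt, 8.01 for U at base 1 and 5.55 for U at base 10. Among sequences of at least 5 RPM they were 0.214 at 19 nt, -0.892 at 33 to 40 nt, -1.14 for A and 6.46 for U at base 10. At 3 reads 0.339 of the distinct sequences remained. Log2 changes turned positive on centring for miR-3471 (3.32), miR-3535 (1.98), miR-140-3p (1.95), miR-883a-3p (1.60), miR-200b-3p (1.57), miR-148b-3p (1.31), miR-7217-3p (0.81), miR-202-3p (0.61), miR-541-5p (0.52) and miR-151-3p (0.25). With edgeR's TMM they did for miR-3471 (7.74), miR-3535 (5.31), miR-7217-3p (4.27), miR-140-3p (2.81), miR-148b-3p (2.30), miR-27b-3p (1.59), miR-541-5p (1.47), miR-34c-5p (0.55), miR-25-3p (0.0758) and miR-21a-5p (0.0782). With DESeq2 they did for miR-3471 (7.94), miR-3535 (5.46), miR-7217-3p (4.44), miR-140-3p (2.88), miR-148b-3p (2.37), miR-27b-3p (1.65), miR-541-5p (1.54), miR-883a-3p (1.504), miR-200b-3p (1.47), miR-34c-5p (0.61), miR-202-3p (0.48), miR-25-3p (0.14), miR-21a-5p (0.14) and miR-151-3p (0.13). Per methylated spike-in read they turned negative for miR-7214-5p (-2.04), the 22-nt sequence (-0.96), the antisense sequence of 5330409N07Rik (-1.52) and the classes of 17 nt (-0.41), 18 nt (-0.99) and 21 nt (-1.81) without U at base 1 or A at base 10 and of 18 nt without U at base 1 and with A at base 10 (-1.74). Where construction does not show it, the cause was not tested.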

Other observations

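The miR-7217-3p locus (chr17:27355778-27355799, plus strand, GRCm38) lies between the places of sequence BB in Gm10505 and sequence BC in Gm49794 on the same strand. The entry had 84.3 and 101.3 RPM before oxidation and 5.55 and 0 RPM after it, and both sequences had no read after it. BB and BC were named for their large falls, so they do not describe the rest of the locus. The sum of Gm49794 was 8180 and 7929 RPM before and 7807 and 7789 RPM after oxidation. That of Gm10505 was 3933 and 3986 RPM before and 2552 and 2637 RPM after. Sequences BE and BF, named for their large rises, show the reverse of BB and BC. BE in Gm5878 had 2 and 1 reads before oxidation and 244 and 254 after it. BF in 1700001L05Rik had 0 and 0 reads before and 88 and 196 after it. Both reached the level for testing only through the libraries after oxidation at 10 ng, so their calls are no independent support for a rise. Sequences ending in CCA, as mature tRNAs do, were 0.704% and 0.696% of the piRNA RPM before and 0.889% and 1.02% after oxidation. Counted over distinct sequences the order was the opposite, at 0.852% and 0.817% before and 0.784% and 0.709% after.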
